A study of Mus musculus with 15 samples.

Results

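The 32 genes described here encode the chaperones of the endoplasmic reticulum (ER) and the proteins that sense and answer ER stress. They form a list of gene names that sets no threshold on measured values, although it was drawn up with earlier results of these data known, and all 32 are among the 19938 genes read on these arrays by a probe set with a single gene symbol. By role they comprise 9 luminal chaperones and their partners, 2 lectin chaperones, 4 protein disulfide isomerases, 8 genes of ER degradation and translocation, 4 stress sensors, and 5 transcription factors and late effectors. Proteins bound for membranes or for secretion enter the ER through a translocon, and chaperones there bind the unfolded chains while disulfide isomerases form and reshuffle their disulfide bonds. Chains that fail to fold are passed back to the cytosol and degraded. When unfolded protein builds up, the sensors IRE1, PERK and ATF6 start the unfolded protein response, in which XBP1 and a cleaved form of ATF6 raise chaperone transcription and PERK slows translation while favouring ATF4. In the intestine this response is best known from secretory cells such as Paneth and goblet cells.

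RNA came from epithelial cells of the small intestine of wild-type BALB/c mice aged 10 weeks, peeled off after 10 min in 30 mM EDTA. The 15 Affymetrix arrays form 5 groups of 3, namely normal controls given no agent and mice given a GST-RANKL fusion protein intraperitoneally for 1, 2, 3 or 4 days. RANKL is the TNF-family cytokine that drives epithelium to form M cells, which pass luminal particles on to the lymphoid tissue beneath. No group given GST or vehicle alone was analysed here, so RANKL cannot be told apart from the injections or from GST. Whether the 3 arrays of a group stand for separate mice is not stated, and the p-values therefore measure only the spread between these samples, which could be technical.

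Median intensity per array ran from 147 to 167, and RANKL day 1 replicate 2 stood apart, with the highest median and an interquartile range of log2 values of 1.95 against 2.26 to 2.55 on the other arrays. The M cell genes followed the labels. Spib, a transcription factor of M cell development, rose by 4.57 ± 0.20 on the log2 scale on day 1 (SE, n = 3 arrays per group, limma adjusted p = 7.51e-08), and Gp2, an M cell receptor, rose by 4.95 ± 0.34 on day 3 (adjusted p = 7.43e-06). The 9 enterocyte markers measured, among them Vil1, Fabp1 and Sis, read between 8.07 and 13.95 on the log2 scale. The background is given by 3 Y-linked genes, which read 4.88 to 5.50 while Xist read 11.93 or more. The 32 ER genes read 6.97 to 12.75, all above that background.

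The ER stress response element (ERSE) is the best known promoter element of this system. It joins a CCAAT box, bound by NF-Y, to the letters CCACG, bound by ATF6 or XBP1, across a gap of fixed length. RefSeq windows of the GRCm38.p6 build, from 250 bases before to 50 after each start, were found for 27 of the 32 genes and for none of Hyou1, Manf, Derl1, Ern2 and Atf6. On either strand, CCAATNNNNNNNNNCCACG was found in 9 of the 27 genes, which is 33.3%, and in 0.137% of 27025 genes with a window. The 27025 include the 27. Because the element is known from this system and the list holds genes of it, a higher share could be foreseen and is description only. The 10 matches are shown because they mark which of the genes carry the element. Each is written on the strand of its gene with the fixed letters in capitals, so a match in the opposite orientation begins with CGTGG and ends with ATTGG.
Hspa5, chr2:34772025-34772043, plus strand: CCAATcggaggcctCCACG
Hsp90b1 upstream match, chr10:86705638-86705656, minus strand: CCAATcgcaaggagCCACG
Hsp90b1 downstream match, chr10:86705533-86705551, minus strand: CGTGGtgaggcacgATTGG
Dnajc3, chr14:118937827-118937845, plus strand: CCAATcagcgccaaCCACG
Creld2, chr15:88819520-88819538, plus strand: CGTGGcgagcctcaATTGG
Calr, chr8:84847075-84847093, minus strand: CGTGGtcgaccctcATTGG
Canx, chr11:50325800-50325818, minus strand: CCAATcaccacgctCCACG
Pdia6, chr12:17266491-17266509, plus strand: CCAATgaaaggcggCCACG
Syvn1, chr19:6046532-6046550, plus strand: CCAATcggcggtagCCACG
Derl3, chr10:75893242-75893260, plus strand: CGTGGgacttccccATTGG

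All 10 lay between positions -212 and -26, counted from the annotated start. The shorter element ERSE-II, in which ATTGG and CCACG are joined by 1 base of any kind, was found in Herpud1 (ATTGGgCCACG, chr8:94386377-94386387, plus strand) and Dnajb11 (ATTGGcCCACG, chr16:22857852-22857862, plus strand), against 0.0444% of all genes with a window, and neither gene also held the longer element. The core of the UPRE bound by XBP1 (TGACGTGG) was found in 0 of the 27 genes and in 0.714% of all genes. The ATF4-type element TGATGCAA was found in Herpud1 alone, and in 1.03% of all genes. Both strands were searched for each. A match is a description of these letters in the reference genome, which is of the C57BL/6J strain, and not a site of binding, and a window without a match says only that these letters are not in it.

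The 200 bases before the start are shown for 4 genes whose values are described next. Hspa5 and Pdia6 carry the element and read higher on days 2 and 3, Syvn1 carries it and read lower on every day, and Pdia4 read higher on days 2 and 3 without a match in its window.
Hspa5, chr2:34771890-34772089, plus strand: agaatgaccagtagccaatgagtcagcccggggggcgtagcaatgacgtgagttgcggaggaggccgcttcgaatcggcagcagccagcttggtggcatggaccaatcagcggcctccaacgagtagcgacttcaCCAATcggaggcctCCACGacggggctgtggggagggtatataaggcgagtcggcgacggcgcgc
Pdia6, chr12:17266389-17266588, plus strand: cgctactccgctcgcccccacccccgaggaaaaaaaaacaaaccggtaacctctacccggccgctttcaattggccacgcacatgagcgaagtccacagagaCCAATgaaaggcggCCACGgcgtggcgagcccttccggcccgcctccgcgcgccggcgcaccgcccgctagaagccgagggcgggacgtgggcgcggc
Syvn1, chr19:6046376-6046575, plus strand: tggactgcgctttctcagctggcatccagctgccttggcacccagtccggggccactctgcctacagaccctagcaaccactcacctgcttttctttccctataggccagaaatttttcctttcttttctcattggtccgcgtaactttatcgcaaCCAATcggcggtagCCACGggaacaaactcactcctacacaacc
Pdia4, chr6:47813513-47813712, minus strand: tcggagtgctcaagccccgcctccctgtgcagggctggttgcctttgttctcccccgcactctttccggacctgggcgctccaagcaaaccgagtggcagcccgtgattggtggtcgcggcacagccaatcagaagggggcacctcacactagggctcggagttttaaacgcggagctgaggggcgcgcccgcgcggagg

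The comparisons with control ask how ER chaperone and stress genes read on each day of RANKL. The clearest pattern was in the 15 chaperones and disulfide isomerases (luminal, lectin and isomerase genes together), which read near control on day 1, above it on days 2 and 3, and closer to it again on day 4. Their median log2 difference from control was -0.01 on day 1, 0.40 on day 2, 0.30 on day 3 and 0.16 on day 4, against -0.01, -0.02, -0.01 and 0.01 over all 19938 genes. The number above 0 was 7, 15, 15 and 14 of 15, and without control replicate 1 it was 5, 14, 13 and 10, with medians of -0.02, 0.27, 0.23 and 0.04. Few of these differences passed the test singly. A gene is called here where its limma p is under 0.05 after Benjamini-Hochberg adjustment across the whole array.

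**Figure D1:**
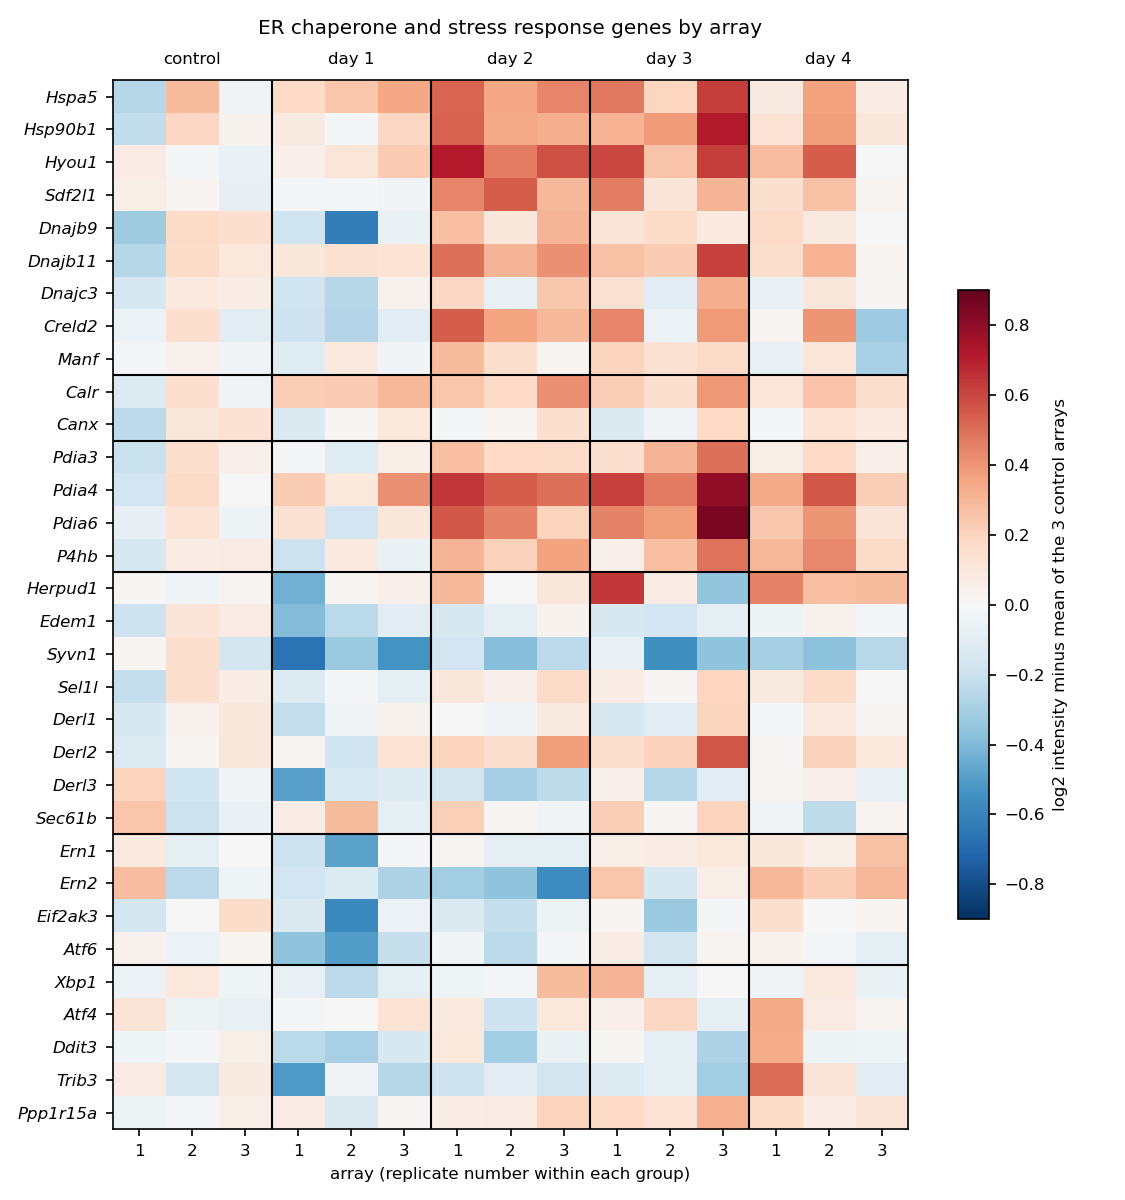
Log2 intensity of the 32 ER genes (rows, grouped by role from luminal chaperones at the top to transcription factors at the bottom) on each of the 15 arrays (columns), minus the mean of the 3 control arrays of that gene. The upper rows are red on most day 2 and day 3 arrays, and the sensor rows near the bottom are blue on day 1.

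On day 1, 0 of the 32 ER genes were called higher and 2 were called lower, Syvn1 and Atf6, while 3.94% of all genes were called, 2% higher and 1.94% lower. On day 2, 3 were called higher, Hyou1, Sdf2l1 and Pdia4, and 0 lower, against 1.52% and 1.05% of all genes and 2.57% in either direction. On day 3, 2 were called higher, Pdia4 and Pdia6, and 0 lower, against 1.72% and 1.24%, or 2.96% in either direction. On day 4, 0 were called, against 0.908% of all genes (0.818% higher and 0.0903% lower), and 4 of the 32 had an unadjusted p under 0.05, as had 9.66% of all genes. Without day 1 replicate 2, the array that stood apart, the called genes were Syvn1 on day 1, the same 3 on day 2, and Pdia4, Pdia6, Hsp90b1 and Hyou1 on day 3, with 0 on day 4. The 4 comparisons share the control arrays. With median centring the split of day 1 calls over all genes shifted from 50.7% to 37.3% higher.

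**Figure D2:**
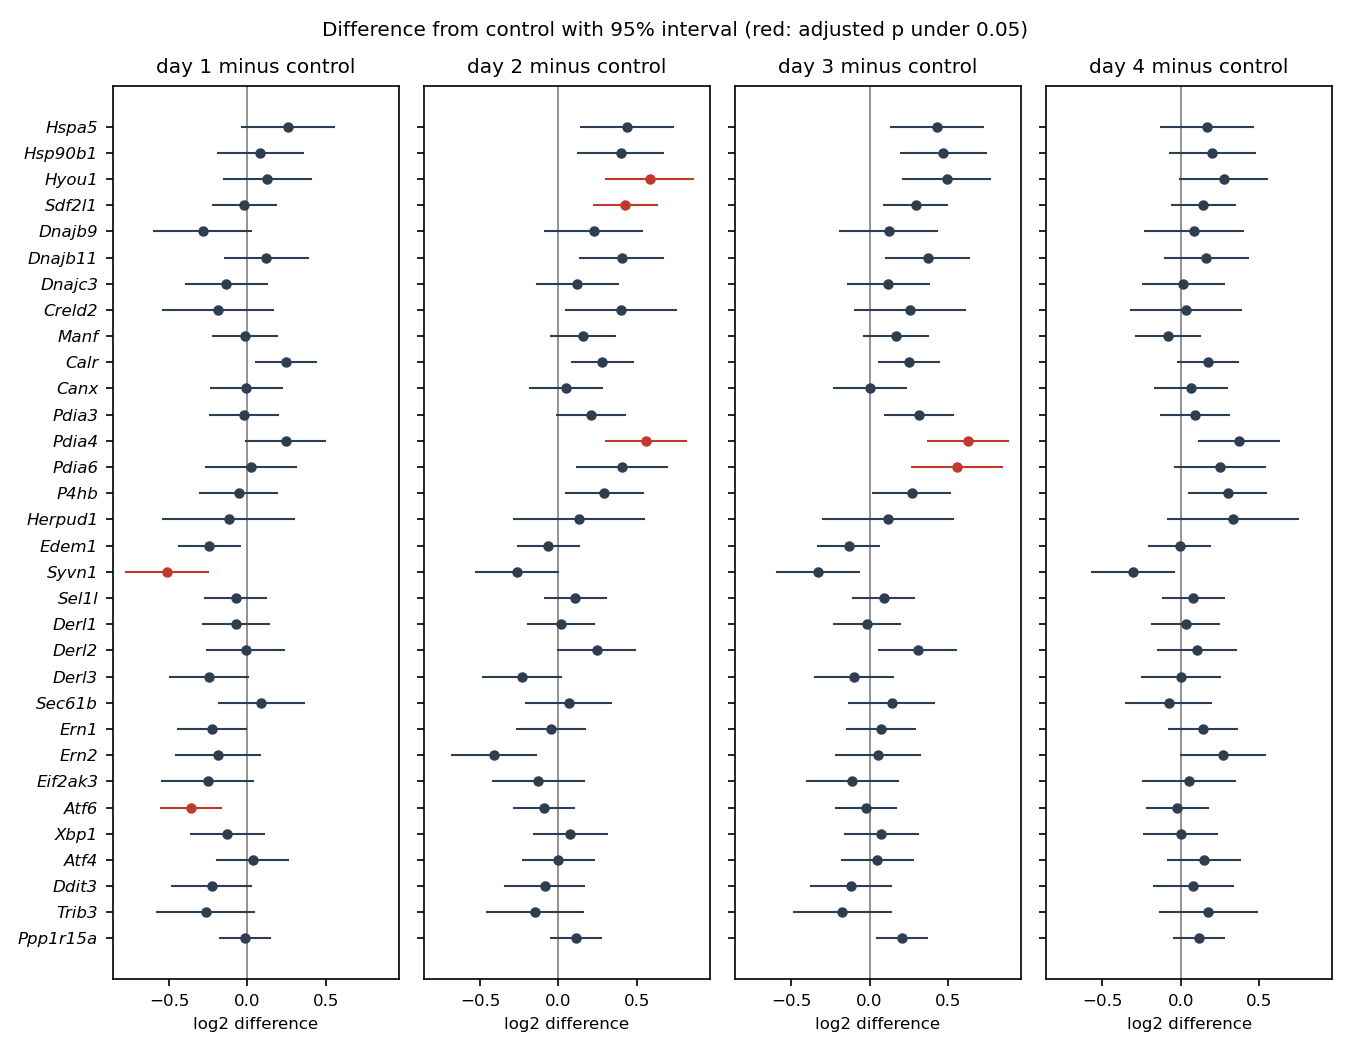
Log2 difference from control (points) with its 95% interval (bars) for each of the 32 genes on each day of RANKL, in red where the adjusted p is under 0.05 and in dark blue otherwise. The upper 15 rows sit right of 0 on days 2 and 3, with Hyou1, Sdf2l1, Pdia4 and Pdia6 among the red points, and Syvn1 and Atf6 are the red points left of 0 on day 1.

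Among the luminal chaperones, Hspa5 encodes BiP, the ER Hsp70 that also holds the stress sensors inactive. Its log2 intensity was 11.35, 11.89 and 11.58 in the controls, 11.78, 11.85 and 11.95 on day 1, 12.13, 11.95 and 12.05 on day 2, 12.08, 11.80 and 12.23 on day 3 and 11.68, 11.96 and 11.67 on day 4. The 3 day 2 arrays lay above all 3 controls, whose own spread was wide, and the other days overlapped them. The difference on day 2 was 0.44 ± 0.14 (95% interval 0.14 to 0.73, adjusted p = 0.138) and on day 3 0.43 ± 0.14 (adjusted p = 0.118), and neither was called. Control replicate 2 was the highest control, and without it Hspa5 was called higher on both days.

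Hyou1 encodes a large Hsp70-like protein that helps BiP exchange its nucleotide. It read 10.12, 10.03 and 9.99 in the controls, 10.09, 10.16 and 10.27 on day 1, 10.76, 10.51 and 10.62 on day 2, 10.64, 10.30 and 10.67 on day 3 and 10.32, 10.59 and 10.05 on day 4. Every day 2 and day 3 array lay above every control, and the day 1 and day 4 arrays overlapped them. Hyou1 rose on day 2 by 0.58 ± 0.13 (1.5-fold, adjusted p = 0.0273), and the difference on day 3 of 0.49 ± 0.13 just missed the call (adjusted p = 0.0595). The day 2 call was lost when the deposited values were used without further scaling (0.0596), with median centring (0.123), and without any 1 of the 3 control or 3 day 2 arrays (0.0512 to 0.137).

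Sdf2l1 encodes a small luminal protein that works with BiP and its J-domain partners. It read 9.40, 9.36 and 9.27 in the controls, 9.33, 9.33 and 9.32 on day 1, 9.79, 9.89 and 9.64 on day 2, 9.81, 9.46 and 9.65 on day 3 and 9.49, 9.61 and 9.37 on day 4. The day 2 and day 3 arrays all lay above the controls, and the day 1 arrays lay within their range. It rose on day 2 by 0.42 ± 0.09 (1.34-fold, adjusted p = 0.0261), and the day 3 difference was 0.30 ± 0.09 (adjusted p = 0.118). The day 2 call was lost without further scaling (0.0699), with median centring (0.151), in a fit of the 2 groups alone (0.0512), and without any 1 of the 3 controls, day 2 replicate 1 or day 2 replicate 2 (0.0566 to 0.141).

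The other luminal genes had the same sign on days 2 and 3 and none was called. Hsp90b1, the ER Hsp90, differed from control by 0.40 ± 0.13 on day 2 and 0.47 ± 0.13 on day 3 (adjusted p = 0.147 and 0.0657), with all 3 arrays above the controls on both days. Dnajb11, a J-domain partner of BiP, differed by 0.40 ± 0.12 and 0.37 ± 0.12, also with no overlap. Creld2, a stress-inducible luminal protein, differed by -0.19 ± 0.16 on day 1, where its 3 arrays lay below all controls, and by 0.40 ± 0.16 on day 2, where they lay above. Its day 4 arrays ranged from 9.27 to 10.00, across the whole control range. The J-domain genes Dnajb9 and Dnajc3 and the secreted stress protein gene Manf differed by 0.12 to 0.22 on days 2 and 3.

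**Figure D3:**
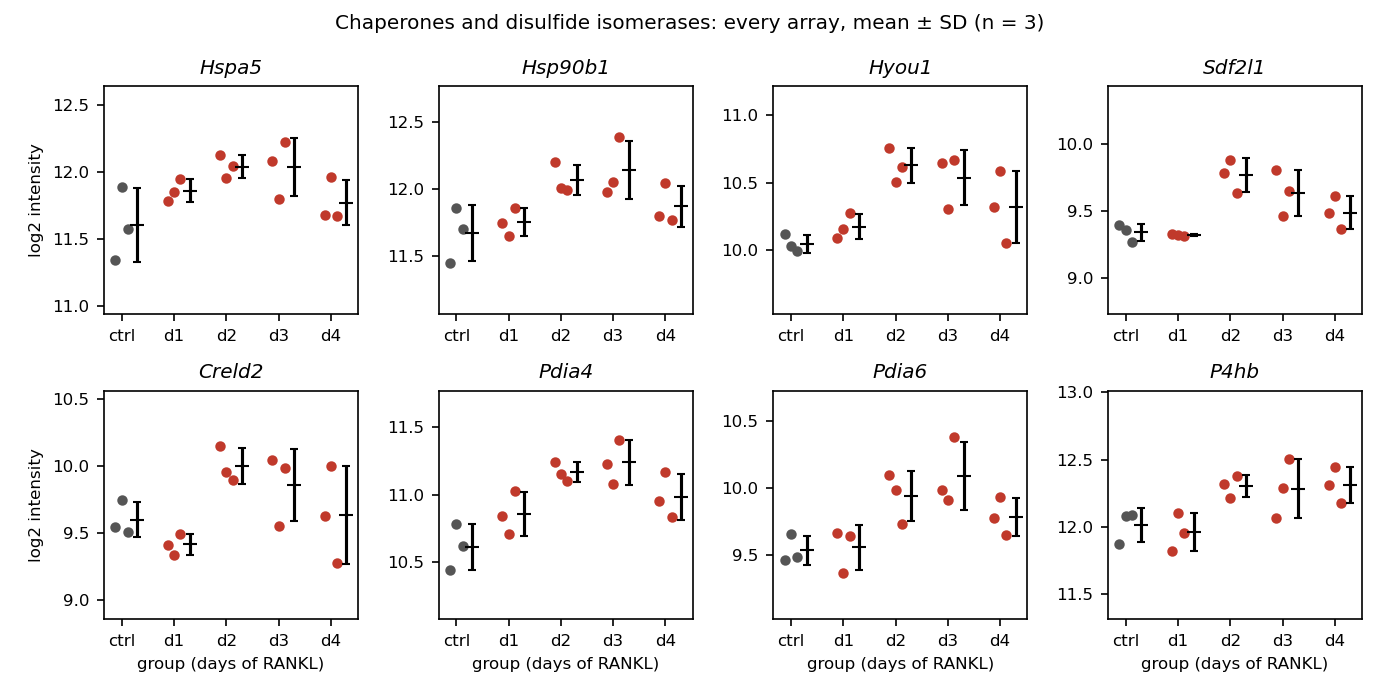
Log2 intensity of 8 chaperone and disulfide isomerase genes on every array (points, controls in grey and days 1 to 4 of RANKL in red), with the mean and SD of 3 arrays beside each group. Hyou1, Sdf2l1 and Pdia4 show day 2 arrays clear of the controls, and the day 4 points fall back towards them.

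The lectin chaperones hold newly made glycoproteins by their trimmed sugars. Calr, the soluble calreticulin, differed from control by 0.25 ± 0.09 on day 1, 0.28 ± 0.09 on day 2, 0.25 ± 0.09 on day 3 and 0.18 ± 0.09 on day 4, none called (lowest adjusted p = 0.153). It was the only one of the 32 genes whose 3 day 1 arrays all lay above the controls, as did its day 2 arrays. Canx, the membrane-bound calnexin, differed by 0.06 or less on every day, with a 95% interval on day 2 of -0.18 to 0.28.

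Among the disulfide isomerases, Pdia4 showed the largest difference. It read 10.44, 10.78 and 10.61 in the controls, 10.84, 10.70 and 11.02 on day 1, 11.25, 11.15 and 11.10 on day 2, 11.23, 11.08 and 11.41 on day 3 and 10.95, 11.17 and 10.83 on day 4. The arrays of days 2, 3 and 4 all lay above the controls. Pdia4 rose on day 2 by 0.56 ± 0.12 (1.47-fold, adjusted p = 0.0214) and on day 3 by 0.63 ± 0.12 (1.55-fold, adjusted p = 0.0115), and the day 4 difference was 0.37 ± 0.12 (adjusted p = 0.246). A second and dimmer probe set of Pdia4 gave 0.26 on day 2 and 0.14 on day 3. The day 2 call was lost without further scaling (0.0713), with median centring (0.156), and without any 1 of control replicates 1 and 3 and day 2 replicates 1 and 2 (0.0754 to 0.105), and the day 3 call with median centring (0.0656), with the mean of its probe sets (0.0591) and without day 3 replicate 3 (0.0678).

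Pdia6 encodes an isomerase that binds BiP and also acts on IRE1. Its values were 9.46, 9.66 and 9.49 in the controls, 9.66, 9.36 and 9.64 on day 1, 10.10, 9.98 and 9.73 on day 2, 9.98, 9.91 and 10.38 on day 3 and 9.78, 9.93 and 9.65 on day 4. The day 2 and day 3 arrays lay above all controls, and day 3 replicate 3 was the highest of the 15. It rose on day 3 by 0.56 ± 0.13 (1.47-fold, adjusted p = 0.0412), and the day 2 difference of 0.40 ± 0.13 was not called (adjusted p = 0.173). The day 3 call was lost without further scaling (0.0884), with median centring (0.146), in a fit of the 2 groups alone (0.0736), with the replicate number as a block (0.0586), and without any 1 of the 3 controls, day 1 replicate 3, day 2 replicate 2, day 3 replicates 1 and 3 or day 4 replicate 1 (0.0524 to 0.176).

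P4hb, the founding disulfide isomerase and a subunit of prolyl 4-hydroxylase, differed by 0.29 ± 0.11, 0.27 ± 0.11 and 0.30 ± 0.11 on days 2, 3 and 4, with no overlap with control on days 2 and 4 and no call. Pdia3, the isomerase that serves calnexin and calreticulin, differed by 0.21 ± 0.10 on day 2 and 0.31 ± 0.10 on day 3 (adjusted p = 0.126). Over the 15 chaperones and isomerases, all 3 RANKL arrays lay above all 3 controls for 1 gene on day 1, 11 on day 2, 7 on day 3 and 2 on day 4, while 6.08%, 8.09%, 12.3% and 12.1% of all genes did so. The group mean was highest on day 2 for 8 of the 15 and on day 3 for 5, whereas 9.55% of all genes were highest on day 2 and 18.6% on day 3.

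Summed markers of other cell types are set beside these values. On day 2 the summed linear intensity of 6 Paneth markers was 13679 to 21357 against 22584 to 26506 in control, with 1 of 6 called lower, Lyz1 (-0.44). That of 8 goblet markers was 51430 to 56276 against 60281 to 61937. Of the 8, Ccl6 alone read above control and was called higher (0.49). The other 7 read below it, with Capn9 called lower (-0.55). The sum of 9 markers of plasma cells, which are also secretory, and of B cells was 1780 to 2356 against 2392 to 2962, none called. The sum of 7 M cell markers was 10021 to 11314 on day 2 against 1168 to 1327 in control, with all 7 called higher. On day 3 the Paneth sum was 20717 to 21616, again below all controls, with 0 called. On both days 5 of the 6 Paneth markers read below control and 1, Mmp7, above it (0.21 and 0.67). The day 3 arrays of Mmp7 all lay above the controls. The M cell sum on day 3 was 6858 to 11211, above all controls, with 6 of 7 called higher. The day 3 sums of goblet (51134 to 63321) and of plasma and B cell markers (2062 to 3138) overlapped control. On day 3 the sum of 5 proliferation markers was 3111 to 4072 against 2145 to 2414, with 0 called and 4 of 5 not overlapping control. The day 2 sum of 6 myeloid markers was 1678 to 2131 against 2209 to 2472, and that of 7 stromal markers 1370 to 1659 against 1485 to 2447, with 0 called in either list. The 9 enterocyte markers summed to 74231 to 78020 against 59953 to 74870, with 1 called higher, and the stromal and enterocyte sums overlapped control. None of these markers read at 0, although the dimmest plasma and B cell marker, at 5.64, lay little above background. The part of these cell types in the chaperone values was not tested, and in such bulk samples a change in the number of cells of a type and a change in RNA per cell cannot be told apart.

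The genes of ER degradation and translocation lay on both sides of control, with a median difference of -0.10 on day 1, 0.04 on day 2, 0.04 on day 3 and 0.02 on day 4. Syvn1 encodes HRD1, the ubiquitin ligase at the centre of ER-associated degradation. It read 9.95, 10.07 and 9.76 in the controls, 9.26, 9.59 and 9.39 on day 1, 9.75, 9.54 and 9.69 on day 2, 9.86, 9.37 and 9.57 on day 3 and 9.63, 9.56 and 9.68 on day 4. The arrays of days 1, 2 and 4 all lay below the controls, and day 3 replicate 1 alone reached their range. Syvn1 fell by 0.51 ± 0.12 on day 1 (1.43-fold lower, adjusted p = 0.0300), with later differences of -0.26 ± 0.12, -0.33 ± 0.12 and -0.31 ± 0.12 that were not called. Without day 1 replicate 2, the array that stood apart, the difference was -0.60 (adjusted p = 0.0165). The call was lost in a fit of the 2 groups alone (0.128) and without any 1 of control replicates 1 and 2 and day 1 replicates 1 and 3 (0.0803 to 0.115).

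The partner of HRD1 encoded by Sel1l, which recognises its substrates, differed from control by -0.07 to 0.11. The derlins form part of the exit channel. Derl2 read above every control on days 2 and 3 (0.24 ± 0.11 and 0.31 ± 0.11, adjusted p = 0.430 and 0.192), Derl1 stayed within 0.07 of control, and Derl3 differed by -0.25 ± 0.12 on day 1 and -0.23 ± 0.12 on day 2. Edem1, which hands trimmed glycoproteins to degradation, differed by -0.24 ± 0.09 on day 1 (adjusted p = 0.195). Herpud1, an adaptor of the HRD1 complex, varied most between replicates, with an SD of 0.50 on day 3, and its 3 day 4 arrays lay above the controls (0.34 ± 0.19, adjusted p = 0.646). Sec61b, a translocon subunit, differed by -0.08 to 0.14, and its 3 probe sets gave both signs on day 1, from -0.13 to 0.09.

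All 4 stress sensors read below control on day 1, with a median of -0.24 against -0.01 over all genes. On day 2 all 4 again read below it, with a median of -0.11 against -0.02. Atf6 encodes the sensor that is cut in the Golgi to release a transcription factor. It read 9.54, 9.44 and 9.51 in the controls, 9.13, 8.99 and 9.29 on day 1, 9.47, 9.26 and 9.48 on day 2, 9.57, 9.33 and 9.52 on day 3 and 9.53, 9.49 and 9.41 on day 4. The day 1 arrays lay below all controls and the later arrays overlapped them. Atf6 fell by 0.36 ± 0.09 on day 1 (1.28-fold lower, adjusted p = 0.0400), and on days 2 to 4 it was within 0.09 of control. Without day 1 replicate 2 the difference was -0.29 and was not called (adjusted p = 0.0933). The call held in 9 of 23 alternatives, the fewest among the 7 calls, and it was also lost without further scaling (0.142), with median centring (0.178), with a trended and robust prior (0.0584), in a fit of the 2 groups alone (0.212), and without any 1 of 9 other arrays, namely the 3 controls, day 1 replicate 1, day 2 replicate 1, day 3 replicate 3 and the 3 day 4 arrays (0.0524 to 0.125).

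Ern1 encodes IRE1 alpha, the sensor kinase and endonuclease that splices Xbp1 mRNA. It read 9.34, 9.16 and 9.26 in the controls, 9.07, 8.78 and 9.24 on day 1, 9.28, 9.17 and 9.17 on day 2, 9.31, 9.32 and 9.35 on day 3 and 9.36, 9.32 and 9.52 on day 4. Day 1 replicates 1 and 2 lay below all controls and replicate 3 among them, and the difference of -0.23 ± 0.10 was not called (adjusted p = 0.303). Ern2 encodes IRE1 beta, the form found in mucus-producing epithelia. It read 10.05, 9.54 and 9.74 in the controls, 9.61, 9.65 and 9.50 on day 1, 9.47, 9.42 and 9.21 on day 2, 10.03, 9.63 and 9.84 on day 3 and 10.07, 10.00 and 10.07 on day 4. Its day 2 arrays all lay below the controls, with a difference of -0.41 ± 0.12 (95% interval -0.68 to -0.14, adjusted p = 0.124), which was called without control replicate 2 (-0.53, adjusted p = 0.0461), and its day 4 difference was 0.27 ± 0.12 (adjusted p = 0.514). The summed goblet markers also lay below control on day 2, as given above. On day 4 their sum was 62025 to 66429 against 60281 to 61937 in control, although Muc2 and Zg16 read below control. The part of the goblet markers in the Ern2 values was not tested.

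Eif2ak3 encodes PERK, the sensor kinase that slows translation. It read 8.61, 8.78 and 8.95 in the controls, 8.65, 8.20 and 8.73 on day 1, 8.65, 8.57 and 8.74 on day 2, 8.79, 8.45 and 8.77 on day 3 and 8.93, 8.77 and 8.80 on day 4. Every day overlapped control, and the day 1 difference of -0.25 ± 0.14 was not called (adjusted p = 0.434). The lowest of the 15 values was day 1 replicate 2, and on that array the median of the 4 sensors was -0.49 from control, against -0.18 and -0.13 on the other two day 1 arrays. Markers of intraepithelial lymphocytes also read low on day 1, with a summed intensity of 5450 to 6429 against 6267 to 8196 in control. Of these, 8 of 8 were below 0 and 0 were called. Those of myeloid cells summed to 1967 to 2185 against 2209 to 2472, with 5 of 6 below 0 and 1 called lower. Also below 0, none called, were 5 of 6 Paneth, 6 of 7 stromal and 6 of 8 goblet markers. So were 7 of 9 plasma and B cell and 5 of 9 enterocyte markers, none called. Above 0 were 6 of 7 M cell markers and 5 of 5 proliferation markers. The part of these cell types in the sensor values was not tested.

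**Figure D4:**
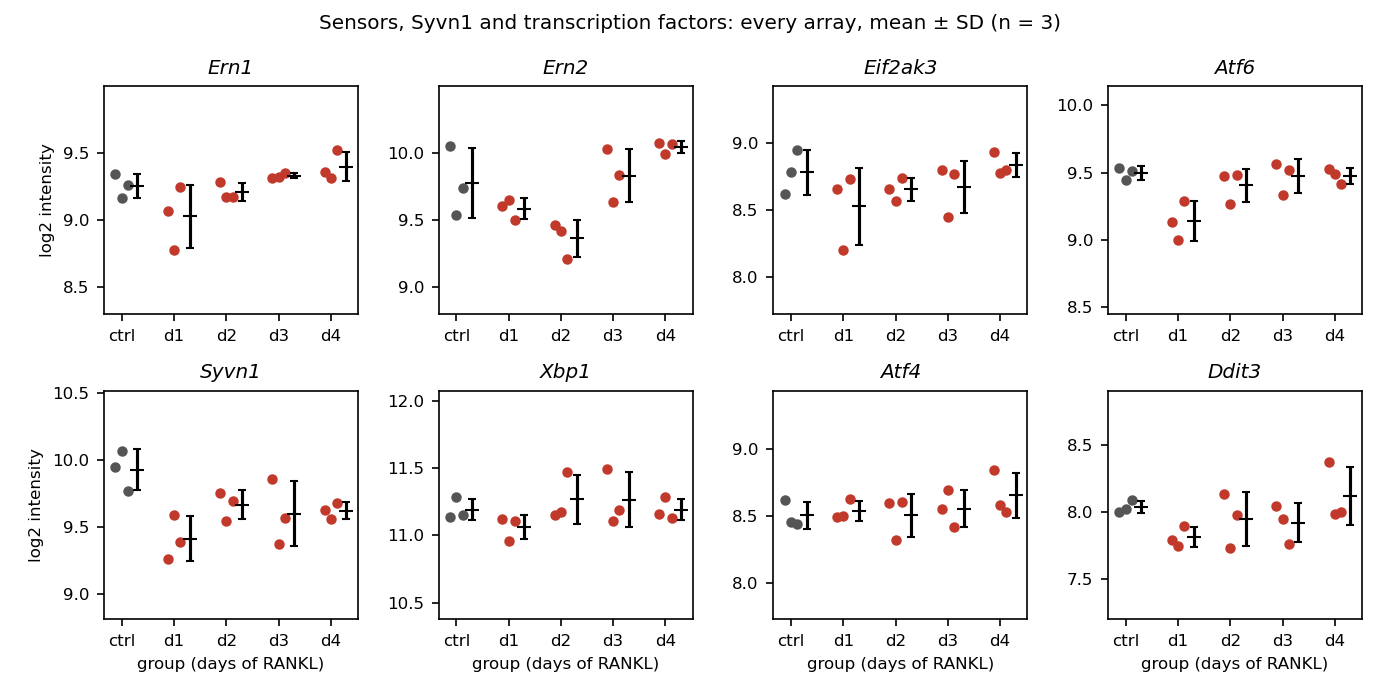
Log2 intensity of the 4 sensors, Syvn1 and 3 transcription factors on every array (points, controls in grey and days 1 to 4 of RANKL in red), with the mean and SD of 3 arrays beside each group. Atf6 and Syvn1 sit lowest on day 1 and Ern2 lowest on day 2, while Atf4 and Xbp1 overlap control on days 2 to 4.

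None of the 5 transcription factors and late effectors was called on any day. On day 1, 4 of the 5 read below control, with a median of -0.13, and 2 had all arrays below all controls, as had 8.51% of all genes. On day 4 all 5 read above control, with a median of 0.12. Xbp1, which acts as a chaperone-inducing factor once its mRNA is spliced, read 11.14, 11.28 and 11.16 in the controls, 11.12, 10.96 and 11.11 on day 1, 11.15, 11.18 and 11.48 on day 2, 11.50, 11.11 and 11.19 on day 3 and 11.16, 11.28 and 11.13 on day 4. Its day 1 arrays all lay below the controls by a small margin, and no difference was called (day 2 0.08 ± 0.11, 95% interval -0.16 to 0.31). Splicing of Xbp1 and cleavage of ATF6, which set their activity, are not read by these values.

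Atf4, the factor whose translation PERK signalling favours, read 8.62, 8.45 and 8.44 in the controls, 8.49, 8.5 and 8.62 on day 1, 8.59, 8.32 and 8.60 on day 2, 8.55, 8.69 and 8.42 on day 3 and 8.84, 8.58 and 8.53 on day 4. All days overlapped control, and the day 2 difference was 0.00 with a 95% interval of -0.23 to 0.23. Ddit3 encodes CHOP, a factor linked to cell death under lasting stress. It read 8.0, 8.02 and 8.09 in the controls, 7.79, 7.75 and 7.89 on day 1, 8.13, 7.74 and 7.98 on day 2, 8.05, 7.95 and 7.76 on day 3 and 8.37, 7.99 and 8.0 on day 4. Its day 1 arrays lay below all controls, with a difference of -0.23 ± 0.12 that was not called (adjusted p = 0.411). Trib3, a pseudokinase induced by CHOP, differed by -0.27 on day 1 and 0.18 on day 4, and its day 4 value was high on replicate 1 in particular, as was that of Ddit3. Ppp1r15a, the phosphatase subunit that restores translation, read above all controls on days 2, 3 and 4 by small differences of 0.11, 0.21 and 0.12, none called.

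Over all 32 genes, the arrays of a day lay above all controls for 1, 13, 9 and 4 genes on days 1 to 4 and below all controls for 5, 2, 0 and 1. The shares of all genes lying below control in this way were 8.51%, 9.44%, 9.9% and 6.16%. On day 2, then, 13 of 32 stood above control while 8.09% of all genes did, and 2 of 32 stood below while 9.44% did. The group mean was lowest on day 1 for 21 of the 32, while 25.2% of all genes were lowest then.

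**Figure D5:**
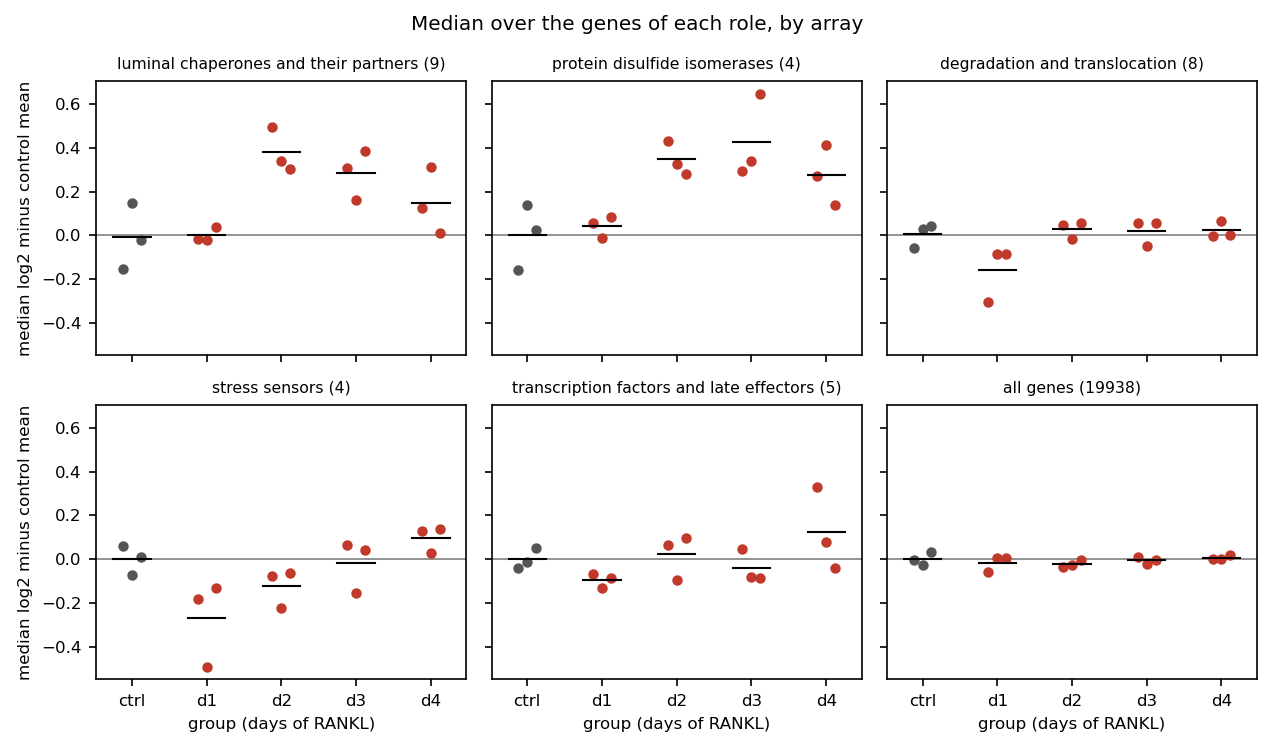
Median over the genes of each role of the log2 intensity minus its control mean, on each array (points) with the group mean of these medians (lines), for 5 roles and for all 19938 genes. Luminal chaperones reach 0.31 to 0.50 and disulfide isomerases 0.28 to 0.43 on the 3 day 2 arrays, sensors reach -0.49 on a day 1 array, and the medians over all genes stay within 0.06 of 0.

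Comparisons between days ask where along the course the genes moved. Between day 1 and day 2 all 15 chaperones and isomerases read higher on day 2, with a median of 0.31 against -0.01 over all genes, and 11 of the 15 had no overlap, as had 5.41% of all genes in that direction. Over the 32 genes 14 had no overlap and read higher, and 1, Ern2, read lower with none, as had 4.63% of all genes. None of the 32 was called, against 0.201% of all genes, while 12 had an unadjusted limma p under 0.05, as had 6.97% of all genes. The largest of these differences were in Creld2 (0.58 ± 0.16, adjusted p = 0.253), Dnajb9 (0.51 ± 0.14, 0.261), Hyou1 (0.45 ± 0.13, 0.261) and Sdf2l1 (0.44 ± 0.09, 0.0886). Between days 2 and 3 the median over the 15 was -0.02, 0 of the 32 genes and 0% of all genes were called, and 1 of the 32, Ern2, had an unadjusted p under 0.05 (0.47 ± 0.12), as had 4.82% of all genes. Of the 32, 2 had no overlap and read higher, against 9.05% of all genes, and 0 lower, against 5%. Between days 3 and 4 the median over the 15 was -0.22, with 13 lower on day 4, 0 of the 32 called against 0.015% of all genes, and 5 with an unadjusted p under 0.05, as had 5.46% of all genes. With no overlap, 1 of the 32 read higher and 1 lower on day 4, against 8.5% and 4.91% of all genes.

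On day 4 against day 1, 28 of the 32 genes read higher on day 4, as did 55.9% of the 15593 measured genes with a promoter window and no ERSE. With no overlap, 13 of the 32 read higher, against 12.8% of all genes, and 0 lower, against 6.71%. None of the 32 was called, against 1.32% of all genes, and 10 had an unadjusted p under 0.05, as had 15.8% of all genes. Of the 263 calls over all genes 79.1% were higher, and with median centring 95.4% of 584 were. The lowest adjusted p were those of Atf6 (0.34 ± 0.09, adjusted p = 0.0900), Ern2 (0.46 ± 0.12, 0.0965) and Ern1 (0.37 ± 0.10, 0.101). All 3 are sensors, and each read higher on every day 4 array than on any day 1 array. Ern2 was called without further scaling, with median centring, with the replicate number as a block and without control replicate 1. Atf6 was called with the block and without day 1 replicate 3, and Ern1 without day 1 replicate 3.

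The promoter windows were set beside these values as a description. The 9 genes with an ERSE had a median difference from control of -0.01 on day 1, 0.28 on day 2, 0.25 on day 3 and 0.06 on day 4. The 18 with a window and no ERSE had -0.06, 0.11, 0.12 and 0.11. The 2 sets also differ in role. All 9 with an ERSE are chaperones or isomerases except Syvn1 and Derl3, while most of the 18 have other roles. The part of role in these medians was not tested. Called genes were found on both sides of this split. Pdia6, called higher, and Syvn1, called lower, carried the element, and Pdia4 and Sdf2l1, called higher, had a window without it. Over the 21 measured genes of the whole array that carried an ERSE, these 9 included, the median was 0.01 on day 2 and 0.07 on day 3, against -0.02 and -0.01 over 15593 genes with a window and none.

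Of the other genes of the secretory pathway and the stress response, listed by role, 106 of 111 were measured. Of these, 3 were called higher and 2 lower on day 1, 7 and 0 on day 2, 10 and 0 on day 3, and 4 and 0 on day 4. Of all genes, 2%, 1.52%, 1.72% and 0.818% were called higher on these days, and 1.94%, 1.05%, 1.24% and 0.0903% lower. The day 1 counts, 2.83% higher and 1.89% lower of the 106, lay near the shares of all genes. The median differences of the 106 were 0.00, 0.15, 0.21 and 0.16. Of the genes of the translocon and of signal peptide removal, 16 of 16 were above 0 on days 2, 3 and 4, with medians of 0.28, 0.35 and 0.21, and 2 were called on day 2 and 2 on day 3. Over all genes 43.3% and 46.8% were above 0 on days 2 and 3, and the day 4 share is given with the ATF4 targets below. Ssr3 and Ssr1 encode subunits of the translocon-associated complex, and on day 3 they rose by 0.69 ± 0.11 and 0.59 ± 0.12 (adjusted p = 0.00318 and 0.0196). Ssr3 read 10.02, 10.19 and 10.01 in the controls and 10.69, 10.67 and 10.94 on day 3, with no overlap. The Ssr3 call was lost with median centring (0.0517), and the Ssr1 call with that scaling (0.0923), without further scaling (0.0515), in a fit of the 2 groups alone (0.0542) and without control replicate 1 (0.0764), control replicate 3 (0.0515) or day 3 replicate 3 (0.107).

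Folding and disulfide enzymes outside the 32 held 1, 3, 5 and 1 genes called higher on days 1 to 4 of 19 measured, and 0 lower. The shares of all genes called higher were 2%, 1.52%, 1.72% and 0.818%. Dnajc10, an ER J-domain protein that reduces disulfides, read 8.75, 8.99 and 8.93 in the controls, 9.47, 9.41 and 9.64 on day 1, 9.76, 9.69 and 9.50 on day 2 and 9.49, 9.80 and 10.13 on day 3. Every RANKL array lay above every control, and the rise on day 3 was 0.92 ± 0.14 (1.89-fold, adjusted p = 0.00305). Pdia5, another disulfide isomerase, read 8.98, 8.66 and 8.56 in the controls and 9.68, 9.48 and 9.68 on day 3, a rise of 0.88 ± 0.12 (1.84-fold, adjusted p = 0.00128). The day 3 calls of Dnajc10 and Pdia5 held under all 23 alternatives, unlike the calls among the 32 genes.

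Ero1a, the oxidase that recharges the isomerases, rose by 0.76 ± 0.15 on day 2 (adjusted p = 0.0145), a call lost with median centring (0.101) and without control replicate 1 (0.0728), control replicate 3 (0.0571) or day 2 replicate 3 (0.0605). Uggt1, which marks misfolded glycoproteins for another round of calnexin binding, rose by 0.43 ± 0.10 on day 3 (adjusted p = 0.0413), a call lost with other scalings (0.0891 and 0.146), with a replicate block (0.0514), in a fit of the 2 groups alone (0.0864), and without control replicate 1 or 3, day 1 replicate 3, day 2 replicate 1 or 2, day 3 replicate 1 or 3, or day 4 replicate 3 (0.0519 to 0.189). In degradation, with 13 measured, Nploc4, a cofactor of the extracting ATPase VCP, rose by 0.28 ± 0.07 on day 1 (adjusted p = 0.0472), a call lost with other scalings (0.235 and 0.485), without the dimmest genes (0.0546), with a trended prior (0.0834), in a fit of the 2 groups alone (0.286) and without any 1 of the arrays (0.0512 to 0.172) except control replicate 2 and day 4 replicate 1. Ube2g2, a ubiquitin-conjugating enzyme of this pathway, rose by 0.35 ± 0.09 on day 3 (adjusted p = 0.0448), a call lost with other scalings (0.0694 and 0.110), with a trended prior (0.0720), in a fit of the 2 groups alone (0.103) and without control replicate 1 or 2, day 1 replicate 3, day 2 replicate 1 or 2, any day 3 array or day 4 replicate 2 (0.0540 to 0.142). Of 14 vesicle transport genes, 14 were above 0 on day 2 and 1 was called, Surf4, a receptor that carries cargo out of the ER (0.42 ± 0.08, adjusted p = 0.0139). Over all genes, 43.3% were above 0 on day 2 and 1.52% were called higher. The Surf4 call was lost without control replicate 1 (0.0540), control replicate 3 (0.0713), day 2 replicate 1 (0.0662) or day 2 replicate 3 (0.0540). Of 11 N-glycosylation genes, 11 were above 0 on day 3, against 46.8% of all genes, with a median of 0.23, and 0 were called on any day.

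Of 24 targets of ATF4 and of the integrated stress response, 13, 13, 16 and 20 read above 0 on days 1 to 4, against 48.2%, 43.3%, 46.8% and 52.1% of all genes, with medians of 0.02, 0.05, 0.10 and 0.17. In this list 2 were called lower on day 1, 0 were called on day 2, and 1 was called higher on each of days 3 and 4. Of all genes, 1.94% were called lower on day 1, and 1.72% and 0.818% higher on days 3 and 4. Atf3, a stress-induced factor, fell on day 1 from 8.95, 9.16 and 8.87 in the controls to 8.31, 7.99 and 8.22, a fall of 0.82 ± 0.18 (1.77-fold lower, adjusted p = 0.0208), and the call was lost with median centring (0.0530) and without control replicate 1 (0.0535), control replicate 2 (0.0833), day 1 replicate 2 (0.0568) or day 1 replicate 3 (0.0502). Later it read 9.02, 8.21 and 8.26 on day 2, 8.53, 8.22 and 8.19 on day 3 and 8.77, 8.52 and 8.53 on day 4. The arrays of days 3 and 4 also lay below all controls, without a call, and day 2 replicate 1 reached the control range. Ppp1r15b, the constitutive partner of the phosphatase that Ppp1r15a serves, fell by 0.33 ± 0.08 on day 1 (adjusted p = 0.0412), a call lost with other scalings (0.106 and 0.131), with the mean of its probe sets (0.305), with a trended prior (0.0655), in a fit of the 2 groups alone (0.241) and without any control, day 1 replicate 1 or 2, day 2 replicate 3, any day 3 array or day 4 replicate 2 (0.0510 to 0.142). Vldlr, a lipoprotein receptor gene, rose by 0.42 ± 0.07 on day 4 (adjusted p = 0.00678), a call lost in a fit of the 2 groups alone (0.0513). Nars, an aminoacyl-tRNA synthetase gene, rose by 0.38 ± 0.10 on day 3 (adjusted p = 0.0497), a call lost with other scalings (0.131 and 0.201), with a trended prior (0.0612), in a fit of the 2 groups alone (0.101) and without control replicate 1 or 3, day 1 replicate 1 or 3, day 2 replicate 1 or 2, day 3 replicate 2 or 3, or any day 4 array (0.0554 to 0.216).

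Among 9 factors related to ATF6 and its proteases, Nfe2l1, an ER-anchored transcription factor of proteasome genes, was called higher on every day. It read 9.78, 9.71 and 9.77 in the controls, 10.39, 10.34 and 10.45 on day 1, 10.24, 10.20 and 10.28 on day 2, 10.08, 10.04 and 10.27 on day 3 and 10.05, 10.06 and 10.10 on day 4. No RANKL array overlapped the controls, and the rise was 0.64 ± 0.07 on day 1 (adjusted p = 9.50e-05) and 0.31 ± 0.07 on day 4 (adjusted p = 0.0452). The day 1 and day 2 calls held under all 23 alternatives. The day 3 call was lost with other scalings (0.0543 and 0.108) and when only the 2 groups were fitted (0.0626), and the day 4 call was lost with other scalings (0.106 and 0.151), without the dimmest genes (0.0680), with a trended prior (0.0931), in a fit of the 2 groups alone (0.0885) and without any 1 of the arrays (0.0517 to 0.183) except day 1 replicate 2 and day 3 replicates 2 and 3. Creb3l4, an ER-anchored factor that is cleaved like ATF6, rose by 0.53 ± 0.10 on day 4 (adjusted p = 0.0269), and the call was lost without any 1 of the control or day 4 arrays (0.0742 to 0.108).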

How the data were processed

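The authors deposited intensities on a linear scale, with 28853 probe sets per array. The submitters' processing notes name the build mm9, and how the authors summarised and normalized the probes is not given in the sources used here. Of the probe sets, 21789 carried 1 gene symbol. Before testing, log2 values with an offset of 0 were quantile normalized, since the array medians differed by 0.18. Each of 19938 genes was read from its brightest probe set, and no filter was applied.

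All 15 arrays entered 1 model of the 5 group means in limma 3.58.1 (R 4.3.3), with 10 residual and 3.49 prior degrees of freedom, no block and two-sided tests. Benjamini-Hochberg adjustment ran across the genes within each of 8 contrasts, and calls were made at an adjusted p under 0.05. The procedure was tested on simulated data, but the outcome is not given here and adds no weight to the calls. The number of arrays limits the precision.

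The members, gene lists and alternatives were chosen with earlier results of these data known. Values on each array are given for every called member and for Hspa5, Xbp1, Atf4, Ddit3, Ern1, Ern2, Eif2ak3 and Atf6. Of the other lists, at most 4 called genes each with the largest change against control are named, of cell type markers at most 2, and Spib and Gp2 as checks. Marker lists, with those measured, were enterocyte (9), Paneth (6), goblet (8), plasma or B cell (9), intraepithelial lymphocyte (8), stromal (7), myeloid (6), M cell (7) and proliferation (5). Promoter windows were taken from RefSeq (GRCm38.p6). Alternatives were log2 of the deposited values without further scaling, median centring, the removal of the dimmest 40% of genes, an offset of 16, the mean of probe sets, a trended and robust prior, a replicate block, fits of the 2 groups alone, and leaving out each array.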

Additional observations from a re-analysis of the deposited data

Results flagged for a closer look

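For 6 of the 32 genes, every array of one RANKL day lay on the other side of the control mean from every array of another day. The share of all genes doing so is not given here, so whether 6 of 32 is many cannot be judged. Sdf2l1 read 0.444 higher on the log2 scale on day 2 than on day 1 (limma adjusted p = 0.0886), 0.315 higher on day 3 than on day 1, and 0.163 higher on day 4 than on day 1 (adjusted p = 0.414). Dnajb9 read 0.511 higher on day 2 than on day 1 (adjusted p = 0.261), 0.409 higher on day 3 and 0.371 higher on day 4 (adjusted p = 0.241). Creld2 read 0.583 higher on day 2 than on day 1 (adjusted p = 0.253), and it alone among these comparisons lay below all controls on the first day and above all of them on the later day. Sel1l read 0.181 higher on day 2 than on day 1 (adjusted p = 0.782) and 0.165 higher on day 3.

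Ern1 read 0.30 higher on day 3 than on day 1, and 0.369 higher on day 4 than on day 1 (adjusted p = 0.101). Ern2 read 0.460 higher on day 4 than on day 1 (adjusted p = 0.0965) and 0.682 higher on day 4 than on day 2, where all its arrays lay below the controls. The differences of day 3 from day 1 and of day 4 from day 2 were not tested, and none of the tested ones passed the threshold. Groups of 3 arrays are too small for a test of outlying samples.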

How the results depend on the processing

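The counts of called ER genes moved with the processing. With the deposited values not scaled further they were 1, 0 and 1 on days 1, 2 and 3 against control and 1 on day 4 against day 1, in place of 2, 3, 2 and 0, and with median centring 1, 0, 0 and 2. With the replicate number as a block the count was 1 on day 3 and 2 on day 4 against day 1 (Ern2 and Atf6). A trended and robust prior gave 1 on day 1, leaving out the dimmest 40% of genes gave 4 on day 3 (with Hsp90b1 and Hyou1), and the mean of probe sets gave 1 on day 3. The fit of the 2 groups alone gave 0 on day 1, 2 on day 2 (Hyou1 and Pdia4) and 1 on day 3. Leaving out 1 array gave 0 to 2 on day 1, 0 to 3 on day 2, 0 to 4 on day 3 and 0 to 2 on day 4 against day 1. The day 1 count was 0 without control replicate 1 or 2 or day 1 replicate 1, and 1 without control replicate 3, day 1 replicate 2 or 3, day 2 replicate 1, day 3 replicate 3 or any day 4 array. The day 2 count was 0 without control replicate 1 or 3 or day 2 replicate 1 or 2, and 2 (Sdf2l1 and Pdia4) without day 2 replicate 3. Without control replicate 2 the 3 called genes on day 2 were Hspa5 and Pdia4, higher, and Ern2, lower. The day 3 count was 0 without day 3 replicate 3, 4 without day 1 replicate 2, 3 without day 3 replicate 2 or day 4 replicate 2 or 3, and 1 without control replicate 1 or 3, day 1 replicate 3, day 2 replicate 2, day 3 replicate 1 or day 4 replicate 1. On day 4 against day 1 it was 1 without control replicate 1 and 2 (Ern1 and Atf6) without day 1 replicate 3. Across the 23 alternatives the median over the 15 chaperones and isomerases ran from 0.27 to 0.44 on day 2, 0.22 to 0.38 on day 3, 0.04 to 0.25 on day 4 and -0.09 to 0.06 on day 1.

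For the other pathway genes the counts were 2, 6, 3, 3 and 5 on days 1, 2, 3 and 4 and on day 4 against day 1 without further scaling, 1, 3, 2, 3 and 10 with median centring, and 3, 9, 5, 1 and 0 in fits of the 2 groups alone, in place of 5, 7, 10, 4 and 5. A trended prior gave 3 on day 1. On day 2 against day 1 the count of 0 became 1 without the dimmest genes and 1 with the replicate block. Leaving out 1 array gave 1 to 5, 3 to 9, 4 to 17, 1 to 4, 0 to 1 and 2 to 6 in the order day 1, day 2, day 3, day 4, day 2 against day 1, and day 4 against day 1. On day 1, omitting control replicate 1 gave 1, omitting control replicate 3 gave 2, and the count was 3 without any 1 day 1 or day 3 array, day 2 replicate 3 or day 4 replicate 2. The day 2 count was 3 without control replicate 3 and 4 without control replicate 1 or day 2 replicate 1 or 3. The day 3 count was 17 without day 1 replicate 2, 6 without control replicate 1 or day 1 replicate 3, 5 without control replicate 3 and 4 without day 3 replicate 3. The day 4 count was 2 without control replicate 1 or day 4 replicate 1, and 1 without control replicate 2 or 3 or day 4 replicate 2. Day 2 against day 1 gave 1 without day 1 replicate 3 or day 3 replicate 1 or 3, and day 4 against day 1 gave 2 without day 1 replicate 1 or day 4 replicate 1 or 2 and 3 without day 1 replicate 2 or day 2 replicate 1 or 2. Over all genes the count with median centring was 480, 311 and 257 on days 1, 2 and 3 against 785, 513 and 590, and 584 against 263 on day 4 against day 1. Without further scaling it was 378 on day 3 and 17 against 40 on day 2 against day 1. With the replicate block it was 69 on day 2 against day 1 and 473 on day 4 against day 1, and in fits of the 2 groups alone 269 on day 1, 5 and 4. On day 4 against day 3 the count of 3 became 5 with the other scalings and the trended prior.

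Of 1908 alternative values for 83 single-gene results, 1610 kept direction and side of the threshold, 253 lost a call, 8 gained one and 37 turned direction. All that turned were uncalled values near 0. Pdia6 on day 1 was -0.043 without further scaling and -0.089 with median centring, Atf6 was in the same order 0.027 and 0.046 on day 3 and 0.070 and 0.107 on day 4, Atf4 was -0.018 with median centring on day 1, and on day 2 Atf4 was 0.016 and 0.021 and 0.000102 with an offset of 16. Leaving out 1 array gave ranges of -0.056 to 0.0069 for Sdf2l1 on day 1, -0.033 to 0.12 for Pdia6 on day 1, -0.063 to 0.20 for Ern2 on day 3, -0.19 to 0.0019 for Eif2ak3 on day 3, -0.029 to 0.14 for Eif2ak3 on day 4, -0.069 to 0.048 for Atf6 on day 3, -0.049 to 0.011 for Atf6 on day 4, -0.027 to 0.13 for Xbp1 on day 2, -0.041 to 0.15 for Xbp1 on day 3, -0.045 to 0.047 for Xbp1 on day 4, -0.0087 to 0.091 for Atf4 on day 1, -0.049 to 0.094 for Atf4 on day 2, -0.019 to 0.12 for Atf4 on day 3, -0.18 to 0.019 for Ddit3 on day 2 and -0.044 to 0.15 for Ddit3 on day 4.

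The replicate numbers are not known to pair the arrays. Arrays with the same number had deviations from their group means correlated at -0.20 to 0.50 (median 0.14 over 30 pairs, 19 of them over 0.1), and 12 of 15 arrays correlated best with an array of their own number. The causes of these shifts were not tested. The number of arrays and the spread between them limit what can be called, and the 7 calls among the ER genes had adjusted p between 0.0115 and 0.0412.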

Other observations

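Among the 106 other secretory and stress response genes, 5 were called on day 4 against day 1, against 1.32% of all genes. These 5 are named after their values were seen. Kdelr3, a receptor that returns escaped chaperones to the ER, read 8.20, 7.81 and 8.34 on day 1 and 9.18, 9.21 and 8.70 on day 4, a rise of 0.91 ± 0.19 (limma adjusted p = 0.0357). The controls spread from 8.17 to 8.93, and against them the day 4 difference of 0.55 ± 0.19 was not called (adjusted p = 0.327). Ero1b, an ER oxidase gene, rose by 0.59 ± 0.12 between these days (adjusted p = 0.0254), Vldlr by 0.45 ± 0.07 (adjusted p = 0.00585) and Creb3l4 by 0.77 ± 0.10 (adjusted p = 0.00325). The Vldlr and Creb3l4 calls held in 22 of 23 alternatives, and all 5 were lost in fits of the 2 groups alone (0.112 to 0.191). The Ero1b call was lost without day 1 replicate 1 or 2 or day 4 replicate 1 or 2 (0.0644 to 0.140), and that of Kdelr3 without these, control replicate 3, day 2 replicate 1 or 2 or day 3 replicate 3 (0.05002 to 0.178). Nfe2l1 fell by 0.32 ± 0.07 (adjusted p = 0.0319), a value that was -0.17 without further scaling and -0.09 with median centring, where the call was lost (0.317 and 0.692). It was also lost with a trended prior (0.0592) and without day 1 replicate 1 or 3, day 2 replicate 1 or 2, or any day 4 array (0.0510 to 0.157).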
